A study of Mus musculus with 10 samples.

Results

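The hepatocyte identity transcription factors are DNA-binding proteins whose combined action sets up and maintains gene expression in the main cell of the liver. 9 of them were taken by gene symbol (Hnf4a, Cebpa, Foxa1, Foxa2, Foxa3, Onecut1, Onecut2, Prox1 and Nr5a2), by name and not by a threshold on their values. They are 9 of the 24972 gene symbols measured, and all 9 passed the filter on low values that 11110 genes passed.

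RNA was measured in 10 mouse liver libraries by counting the 3′ ends of transcripts. All came from mice bearing a pancreatic ductal adenocarcinoma grown from a clonal line of KPC, a genetically engineered mouse model of pancreatic cancer. In 4 libraries the mouse bore line 6419c1, labelled as a tumour poor in T cells (T cell-low), and in 6 it bore line 6555c3, labelled as rich in T cells (T cell-high). The genotype label is WT in both groups, and the labels give no age, strain or sex. Each T cell class is 1 clone, so line and class cannot be told apart, and no library from a tumour-free mouse was analysed here. The labels do not say that each library is a mouse of its own, so each p-value is set against a spread among libraries that may be in part technical.

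HNF4A is a nuclear receptor bound at a large share of genes active in hepatocytes, and C/EBPα is a leucine zipper factor of gluconeogenesis and nitrogen metabolism. FOXA1, FOXA2 and FOXA3 are forkhead factors that can bind closed chromatin, and ONECUT1 (HNF6) and ONECUT2 are cut-homeodomain factors of liver and bile duct development. NR5A2 (LRH-1) is a nuclear receptor of bile acid and cholesterol genes, and PROX1 is a homeodomain protein that acts as a corepressor of both HNF4A and NR5A2. In the adult liver these factors bind each other's genes and form a network of cross-regulation.

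The values are deposited counts scaled by the authors, called scaled counts here. Their sum lay between 7000659 and 8257373 per library, and 13370 to 14300 genes were above 0. All 15 hepatocyte markers were detected, their sum spanning 721905 to 958048 in the T cell-low group against 431843 to 794851 in the T cell-high group. Some libraries stood apart from their group. T cell-high 1, 3, 5 and 6 together differed by at least 1 on the log2 scale from every other library in 98 genes, and T cell-low 2, 3 and 4 did so in 316 genes, with 0 of the 9 factors in either set. Results below are therefore also given without these or their counterparts. A factor outside both sets can still be split by less than that gap. T cell-high 2 and 4 were the lowest of their group in Hnf4a, Cebpa and Foxa2 and the highest in Foxa3 and Onecut1. Leaving out T cell-high 1, 3, 5 and 6 leaves 4 libraries against 2, at which 0 of 11057 genes were called by limma and 1027 had an unadjusted p below 0.05.

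The promoters of 4 factors are shown first, because Onecut1 and Foxa3 are the factors that differed between the groups, Foxa2 lay on the opposite side of zero from its paralogue Foxa3, and Hnf4a is the factor at the centre of the network. Each run is the 250 bases before an annotated RefSeq start (build GRCm38.p6, the same assembly as mm10), 5′ to 3′ on the gene's strand. Capitals mark letters that matched a motif of a liver factor. Onecut1 (chr9:74861671-74861920, plus strand) and Foxa3 (chr7:19023540-19023789, minus strand) held no match. Foxa2 (chr2:148046970-148047219, minus strand) held 1 ONECUT motif. The downstream start of Hnf4a (chr2:163546905-163547154, plus strand), the one used in adult liver, held 2 copies of one arm of the HNF1 motif.
Onecut1: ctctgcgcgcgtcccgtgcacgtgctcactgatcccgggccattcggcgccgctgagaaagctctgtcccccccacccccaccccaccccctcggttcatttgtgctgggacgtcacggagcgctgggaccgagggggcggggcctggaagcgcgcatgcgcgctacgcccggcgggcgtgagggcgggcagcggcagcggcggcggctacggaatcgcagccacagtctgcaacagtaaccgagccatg
Foxa3: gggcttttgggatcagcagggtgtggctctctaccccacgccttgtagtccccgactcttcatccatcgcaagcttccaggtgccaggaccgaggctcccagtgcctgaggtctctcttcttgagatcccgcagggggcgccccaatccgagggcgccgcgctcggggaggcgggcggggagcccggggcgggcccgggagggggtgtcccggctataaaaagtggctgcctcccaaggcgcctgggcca
Foxa2: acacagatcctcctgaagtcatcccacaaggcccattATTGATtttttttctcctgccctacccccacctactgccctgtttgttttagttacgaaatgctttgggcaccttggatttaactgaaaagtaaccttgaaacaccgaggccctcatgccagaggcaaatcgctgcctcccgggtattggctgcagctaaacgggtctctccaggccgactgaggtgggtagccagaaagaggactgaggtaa
Hnf4a: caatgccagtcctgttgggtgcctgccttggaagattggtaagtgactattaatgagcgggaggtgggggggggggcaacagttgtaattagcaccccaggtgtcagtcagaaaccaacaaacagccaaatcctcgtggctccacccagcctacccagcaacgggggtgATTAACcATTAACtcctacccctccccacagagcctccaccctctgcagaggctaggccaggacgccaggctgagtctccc

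Both strands of 32851 RefSeq windows of this length were searched for 8 motifs, some of which can overlap. ATCAAT, one of the ONECUT motifs searched, was found in 6.72% of all windows, and in Foxa2 it was read on the other strand as ATTGAT, 213 to 208 bases before the start. GTTAAT, the HNF1 arm, was found in 6.43% of windows, and in Hnf4a it was read on the other strand as ATTAAC, 81 to 76 and 74 to 69 bases before the start. The full HNF1 palindrome of 13 letters was found in 0.00913% of windows, TGTTTNC (FOXA) in 17.8%, CAAAGTCCA (HNF4) in 0.384%, TTGCNNAA (C/EBP) in 9.56%, ATCGAT (ONECUT) in 0.728% and CAAGGTCA (NR5A2) in 1.33%. Windows were found for 8 of the 9 factors, from 1 for Onecut1 to 3 for Foxa2. Of the Foxa2 windows not printed, chr2:148045465-148045714 held an HNF1 arm and chr2:148045949-148046198 held no match. The upstream window of Hnf4a (chr2:163506607-163506856), also not printed, held a FOXA and an ONECUT motif. The shares are per window, so a gene with 3 windows has more than 1 occasion for a match. A match is a string of letters, not a measured binding site.

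Of the 9 factors, 2 were higher in the T cell-low livers (Onecut1 and Foxa3), 0 were lower and 7 were not called. The test was limma's moderated test on log2(scaled count + 1), Benjamini-Hochberg adjusted over all 11110 tested genes and called below 0.05. Of all tested genes 12.8% were called, 5.39% upward and 7.39% downward, against 22.2% of the 9 factors. At an unadjusted p below 0.05 the factors counted 3 higher and 1 lower, against 3830 of all 11110 tested genes in either direction. The groups did not overlap in 1 factor, Onecut1, and in 7.39% of all tested genes (3.37% with the T cell-low group higher). The median log2 fold change, T cell-low minus T cell-high throughout, was -0.22 over the factors and 0.003 over all tested genes, and the median size of the change was 0.34 and 0.50. In a piece of whole liver, fewer cells of a type and less RNA per cell cannot be told apart.

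**Figure D1:**
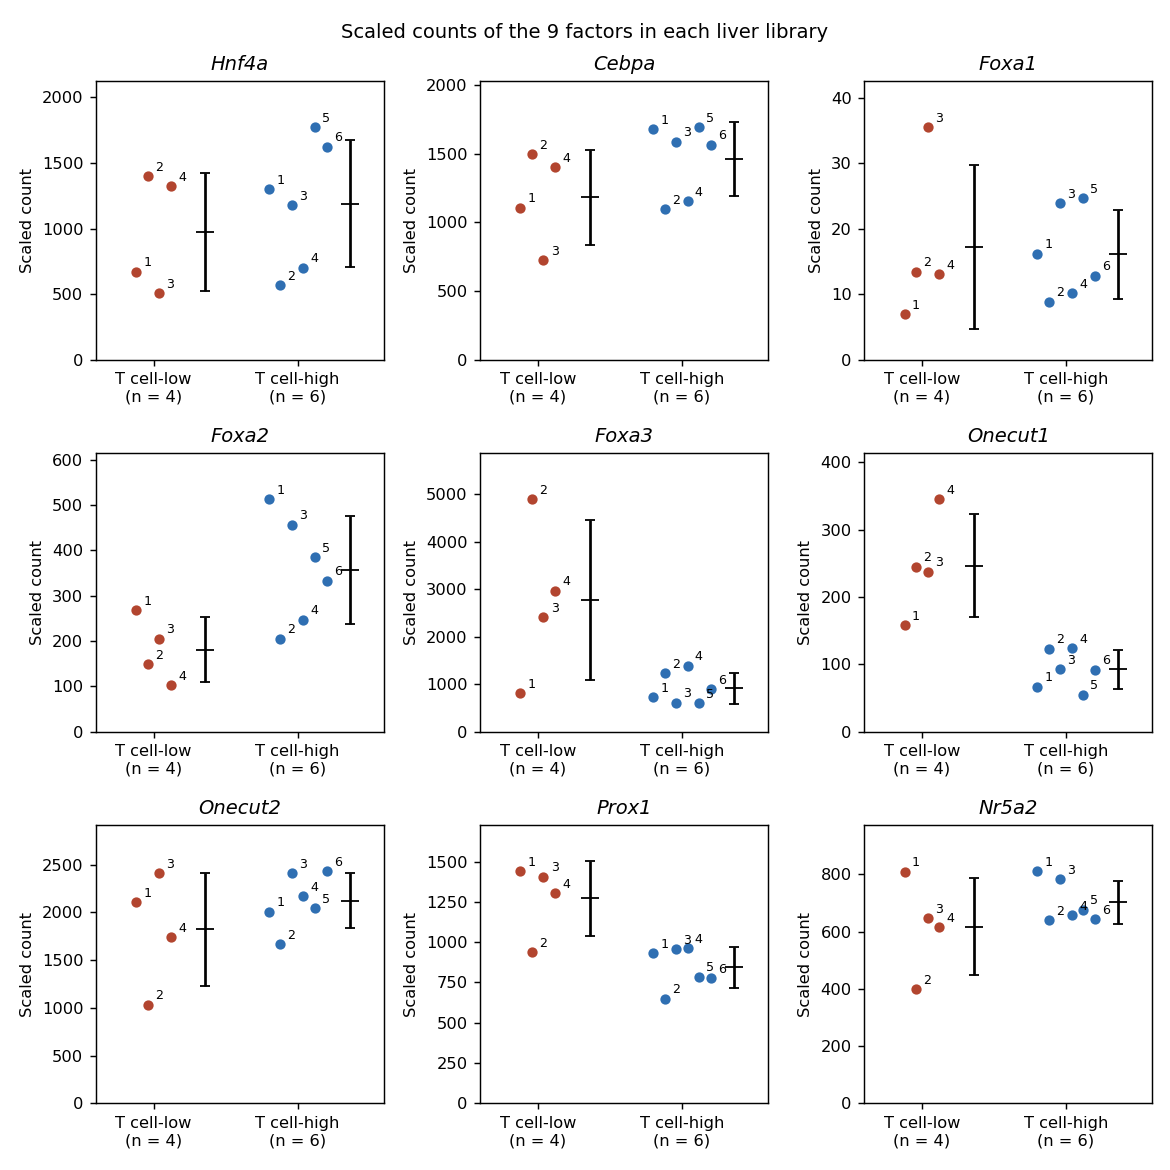
Scaled counts (vertical axes, linear, from 0) of the 9 factors in 4 T cell-low (red points) and 6 T cell-high (blue points) libraries, numbered by replicate, with the mean and SD as bars. The groups are separate for Onecut1, where the T cell-low libraries start at 158 and the T cell-high libraries end at 124.

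Onecut1 (chr9:74861921-74891781, plus strand, mm10) rose in the T cell-low livers by 2.66-fold. Its scaled counts were 158, 245, 237 and 345 in T cell-low 1 to 4, and 54.8 at the lowest, 92.3 at the median and 124 at the highest of the T cell-high libraries. Every T cell-low library lay above every T cell-high library, and T cell-low 1 was the closest to them. The means were 246 ± 76.6 (SD, n = 4) and 92.2 ± 28.3 (SD, n = 6). The log2 fold change was 1.41 (SE 0.29, 95% interval 0.79 to 2.03, limma adjusted p = 0.0169), and the exact two-sided permutation test gave 0.00952, the smallest p that 210 splits allow. The call was lost without T cell-low 2 (adjusted p = 0.0615) or T cell-low 4 (0.0653). Onecut1 has 2 annotated transcripts, of which 1 is coding. In their last 400 bases, pooled, 56.6% of the 50-base words also occur in Gm20649, a noncoding gene on the same strand. The reads of the 2 genes therefore cannot be told apart with certainty. The share was not taken for the coding transcript alone, which ends 305 bases beyond Gm20649. Values of Gm20649 were not used here.

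Onecut2, the paralogue of Onecut1, was not called. In T cell-low 1 to 4 its scaled counts were 2108, 1035, 2409 and 1740, against 1665 at the lowest, 2108 at the median and 2434 at the highest in the T cell-high libraries. T cell-low 2 was the lowest of all 10 libraries and T cell-low 3 was among the highest, so the groups overlapped over most of their range. The means were 1823 ± 592 (SD, n = 4) and 2123 ± 287 (SD, n = 6), with a log2 fold change of -0.28 (SE 0.23, interval -0.78 to 0.22, limma adjusted p = 0.410). The level of Onecut1 relative to Onecut2, as a within-library log2 difference, was -2.87 ± 0.79 (SD, n = 4) with T cell-low tumours against -4.56 ± 0.53 (SD, n = 6) with T cell-high tumours. These differed by 1.69 (exact permutation p = 0.00952, adjusted p = 0.0667 over 7 pairs of factors), which did not pass the threshold after adjustment. That exact p is the smallest that 210 splits allow, so 1 pair alone could not have passed after adjustment over 7 pairs.

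The 3 FOXA paralogues are forkhead proteins with near-identical DNA-binding domains. Foxa3, the FOXA member linked to glucose handling in fasting, was called higher in the T cell-low livers. Foxa2, which acts on bile acid, lipid and fasting genes, had a negative fold change that just missed the threshold, and Foxa1, which shares many of its binding sites, had a fold change near 0.

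Foxa3 (chr7:19013284-19023538, minus strand) rose in the T cell-low livers by 2.67-fold, with 1 exception among the libraries. Its scaled counts were 810, 4890, 2403 and 2967 in T cell-low 1 to 4, and 601 at the lowest, 811 at the median and 1391 at the highest in the T cell-high libraries. T cell-low 2, 3 and 4 lay above all T cell-high libraries, while T cell-low 1 lay in the middle of the T cell-high range. The means were 2768 ± 1684 (SD, n = 4) and 910 ± 332 (SD, n = 6). The log2 fold change was 1.42 (SE 0.42, interval 0.51 to 2.32, limma adjusted p = 0.0449, exact permutation p = 0.0381). The call was kept on leaving out T cell-low 1 (adjusted p = 0.00104), T cell-high 2 (0.0333) or T cell-high 4 (0.0438), and it was lost on leaving out any one of the other 7 libraries (adjusted p from 0.0816 to 0.154).

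Foxa2 (chr2:148042877-148046969, minus strand) was lower in most T cell-low libraries but was not called. T cell-low 1 to 4 had scaled counts of 268, 149, 205 and 103, and the T cell-high libraries had 205 at the lowest, 359 at the median and 513 at the highest. T cell-low 2 and 4 lay below every T cell-high library, T cell-low 3 lay level with the lowest of them, T cell-high 2, and T cell-low 1 lay inside their range. The means were 181 ± 71.3 (SD, n = 4) and 356 ± 119 (SD, n = 6). The log2 fold change was -0.99 (SE 0.31, interval -1.67 to -0.31, limma adjusted p = 0.0543, exact permutation p = 0.0476). It passed the threshold on leaving out T cell-low 1 (adjusted p = 0.0129) or T cell-high 2 (0.0264).

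Foxa1 (chr12:57540628-57546916, minus strand) was not called, with scaled counts of 6.97, 13.5, 35.4 and 13.04 in T cell-low 1 to 4. In the T cell-high libraries it was 8.87 at the lowest, 14.5 at the median and 24.6 at the highest. T cell-low 1 was the lowest and T cell-low 3 the highest of all 10 libraries. The means were 17.2 ± 12.5 (SD, n = 4) and 16.1 ± 6.82 (SD, n = 6), and the log2 fold change was -0.04 (SE 0.48, interval -1.07 to 1.00, limma adjusted p = 0.965). That interval reaches a 2-fold difference in either direction.

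Set against each other within libraries, the fold changes of Foxa2 and Foxa3 lay -2.41 apart on the log2 scale. Foxa2 minus Foxa3 was -3.75 ± 1.58 (SD, n = 4) with T cell-low tumours against -1.34 ± 0.99 (SD, n = 6) with T cell-high tumours (exact permutation p = 0.0286, adjusted p = 0.1 over the 7 pairs). Foxa1 minus Foxa2 differed by 0.95 between the groups (exact p = 0.0952, adjusted p = 0.167), and Foxa1 minus Foxa3 by -1.45 (exact p = 0.0857, adjusted p = 0.167). None of the 7 pairs, Onecut1 with Onecut2 included, passed 0.05 in the exact test after adjustment. With 210 splits the smallest exact p is 0.00952, and 1 pair alone at that p adjusts to 0.0667 over 7 pairs. A single pair could therefore not have passed, whatever its values.

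**Figure D2:**
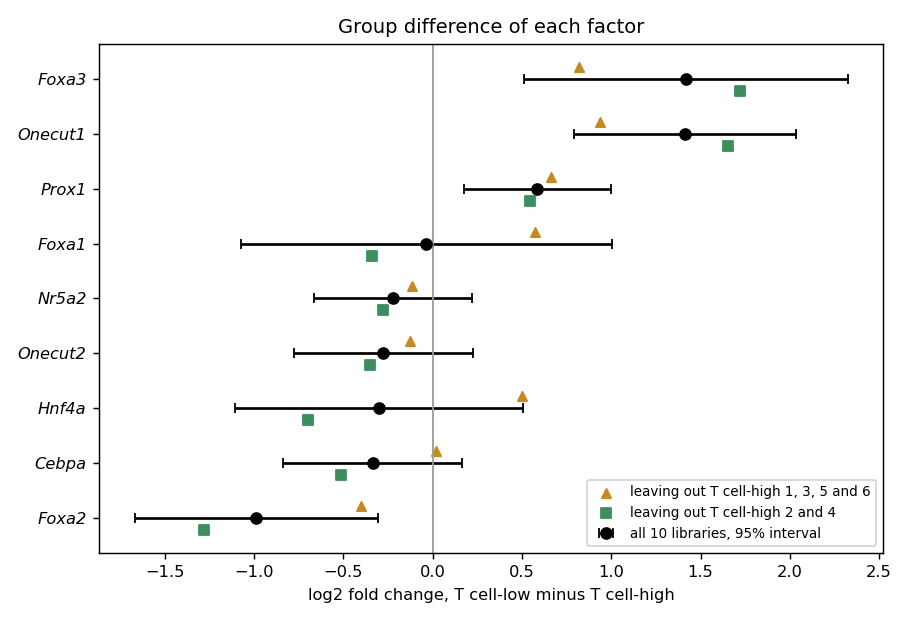
Log2 fold change of each factor (horizontal axis, T cell-low minus T cell-high), with the 95% interval from all 10 libraries as bars and the values without T cell-high 1, 3, 5 and 6 or without T cell-high 2 and 4 as coloured symbols. Onecut1 at 1.41 and Foxa3 at 1.42 lie farthest above 0, and Foxa2 at -0.99 lies farthest below.

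Prox1 (chr1:190118035-190170714, minus strand), the corepressor, was not called. Its scaled counts were 1441, 937, 1405 and 1304 in T cell-low 1 to 4, and 650 at the lowest, 858 at the median and 962 at the highest in the T cell-high libraries. T cell-low 1, 3 and 4 lay above all T cell-high libraries and T cell-low 2 lay near the top of their range. The means were 1272 ± 231 (SD, n = 4) and 843 ± 126 (SD, n = 6), a log2 fold change of 0.59 (SE 0.19, interval 0.17 to 1.00, limma adjusted p = 0.0576, exact permutation p = 0.0286). Leaving out single libraries gave 0.51 to 0.73 and adjusted p from 0.0635 to 0.127.

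Prox1 is also made by lymphatic endothelial cells. Of 5 lymphatic endothelial markers 3 were tested and 1, Lyve1, was called higher in T cell-low livers. The summed level of the 5 was 386, 1015, 909 and 1065 in T cell-low 1 to 4 and 295 to 433 in the T cell-high libraries. Most of the difference in this sum was Lyve1 (158 to 844 against 128 to 196), which sinusoidal endothelium also makes. Flt4 had a log2 fold change of -0.04 (limma adjusted p = 0.943) and Pdpn one of 0.82 (0.118), and Ccl21a and Mmrn1 did not pass the filter. T cell-low 1 had the highest Prox1 and the lowest marker sum of its group, and T cell-low 2 had the lowest Prox1 and a high marker sum. The part of these cells in the Prox1 values was not tested. Prox1os and Gm28172 lie antisense to Prox1 but do not cover its last 400 bases.

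Nr5a2 (chr1:136842571-136960448, minus strand) was not called either. Scaled counts were 810, 399, 647 and 615 in T cell-low 1 to 4, and 639 at the lowest, 668 at the median and 812 at the highest in the T cell-high libraries. T cell-low 2 was the lowest of all, T cell-low 4 lay just below the T cell-high range, and T cell-low 1 and 3 lay inside it. The means were 618 ± 169 (SD, n = 4) and 702 ± 75.5 (SD, n = 6), with a log2 fold change of -0.22 (SE 0.20, interval -0.66 to 0.22, limma adjusted p = 0.456).

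Hnf4a (chr2:163506808-163572910, plus strand) varied within both groups and was not called. Its scaled counts were 673, 1398, 509 and 1323 in T cell-low 1 to 4, and 567 at the lowest, 1239 at the median and 1771 at the highest in the T cell-high libraries. T cell-low 1 and 3 were low together with T cell-high 2 and 4, and the other 6 libraries lay higher, in both groups. The means were 975 ± 450 (SD, n = 4) and 1191 ± 483 (SD, n = 6), a log2 fold change of -0.30 (SE 0.37, interval -1.11 to 0.51, limma adjusted p = 0.590). Hnf4a has 4 annotated coding transcripts with 4 different 3′ ends that span 20275 bases. The deposited values give 1 signal per gene and library, so the use of the 2 starts could not be compared.

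Cebpa (chr7:35119293-35121928, plus strand) followed the same order at its low end and was not called. Cebpa stood at 1107, 1497, 727 and 1402 scaled counts in T cell-low 1 to 4, and at 1095 at the lowest, 1576 at the median and 1691 at the highest in the T cell-high libraries. The 4 libraries lowest in Hnf4a were the 4 lowest in Cebpa, in the same order from T cell-low 3 through T cell-high 2 and T cell-low 1 to T cell-high 4. The means were 1183 ± 347 (SD, n = 4) and 1462 ± 267 (SD, n = 6), a log2 fold change of -0.34 (SE 0.23, interval -0.84 to 0.16, limma adjusted p = 0.313). Cebpa is also made by granulocytes and their precursors. Of 10 granulocyte markers 5 were tested and 4 were called higher in T cell-low livers, with summed levels of 648 to 1749 against 58.6 to 231, and their part in the Cebpa values was not tested.

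Within libraries, Hnf4a minus Cebpa differed between the groups by 0.04 on the log2 scale (exact permutation p = 0.895, adjusted p = 0.895 over the 7 pairs). Hnf4a minus Nr5a2 differed by -0.08 (exact p = 0.886, adjusted p = 0.895), and Hnf4a minus Prox1 by -0.89 (exact p = 0.124, adjusted p = 0.173). The ratio of HNF4A's message to that of its corepressor was thus not called different.

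Hnf4aos, a noncoding gene antisense to Hnf4a whose exons do not overlap it, was looked at because of its position. The scaled counts were 50.9, 1.15, 25.0 and 37.6 in T cell-low 1 to 4, and the T cell-high libraries lay between 62.5 and 112. The groups did not overlap, with T cell-low libraries below. The means were 28.7 ± 21.2 (SD, n = 4) and 86.0 ± 18.7 (SD, n = 6), and the log2 fold change of -2.22 (SE 0.69, limma adjusted p = 0.0509) missed the threshold. Hnf4a itself did not show this separation.

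**Figure D3:**
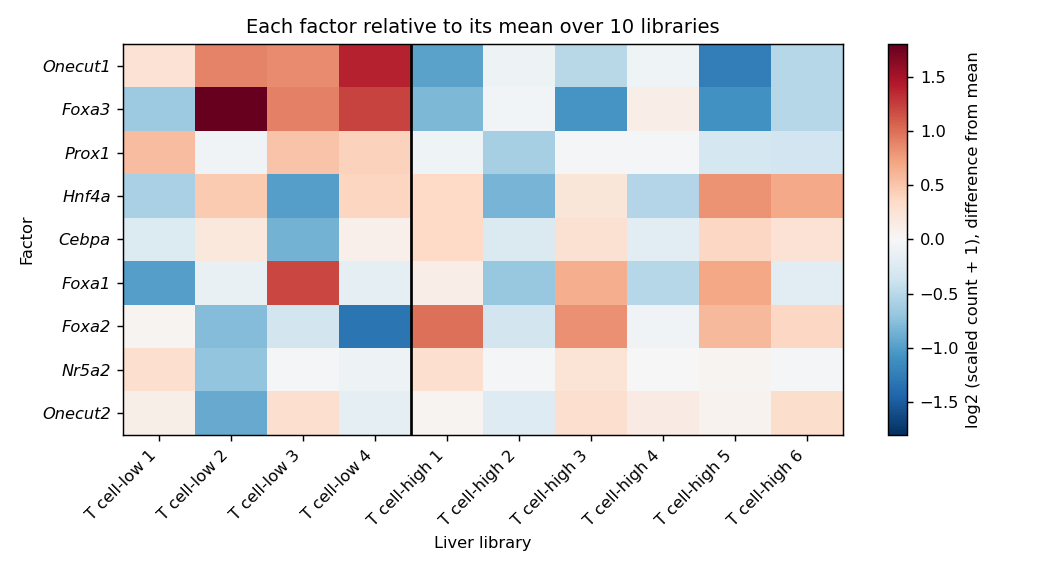
Log2(scaled count + 1) of each factor (rows) in each library (columns) as the difference from that factor's mean over the 10 libraries, red above and blue below, with a line between the groups. Onecut1 and Foxa3 are red in T cell-low 2, 3 and 4, and Hnf4a and Cebpa are blue in T cell-low 1 and 3 and T cell-high 2 and 4.

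Seen across libraries, the factors did not share 1 order. The 6 libraries highest in Onecut1 (all 4 T cell-low libraries with T cell-high 2 and 4) were the 6 lowest in Foxa2, and they held 5 of the 6 highest in Foxa3. T cell-high 2 and 4 thus lay nearest to the T cell-low libraries in 3 factors while being low in Hnf4a and Cebpa. T cell-low 2 was the highest in Foxa3 and the lowest in Onecut2 and Nr5a2, and T cell-low 1 was the lowest in Foxa1 and the highest in Prox1.

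The fold changes depended on which T cell-high libraries were used. Without T cell-high 1, 3, 5 and 6 the log2 fold change was 0.94 for Onecut1 (limma adjusted p = 0.527), 0.82 for Foxa3 (0.635), -0.40 for Foxa2 (0.732) and 0.66 for Prox1 (0.545). Without T cell-high 2 and 4 it was 1.65 for Onecut1 (adjusted p = 0.00646), 1.72 for Foxa3 (0.0223), -1.28 for Foxa2 (0.0156) and 0.55 for Prox1 (0.0687). Onecut1 and Foxa3 kept a positive sign and Foxa2 a negative one in both subsets, which share the 4 T cell-low libraries. For Onecut1 the sign was fixed in advance, since its groups do not overlap. T cell-high 2 and 4 lay nearest to the T cell-low libraries in Onecut1, Foxa2 and Foxa3. Leaving them out therefore had to enlarge the fold changes of these factors. Hnf4a was 0.50 in the first subset and -0.70 in the second, so its sign depended on the T cell-high libraries used.

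**Figure D4:**
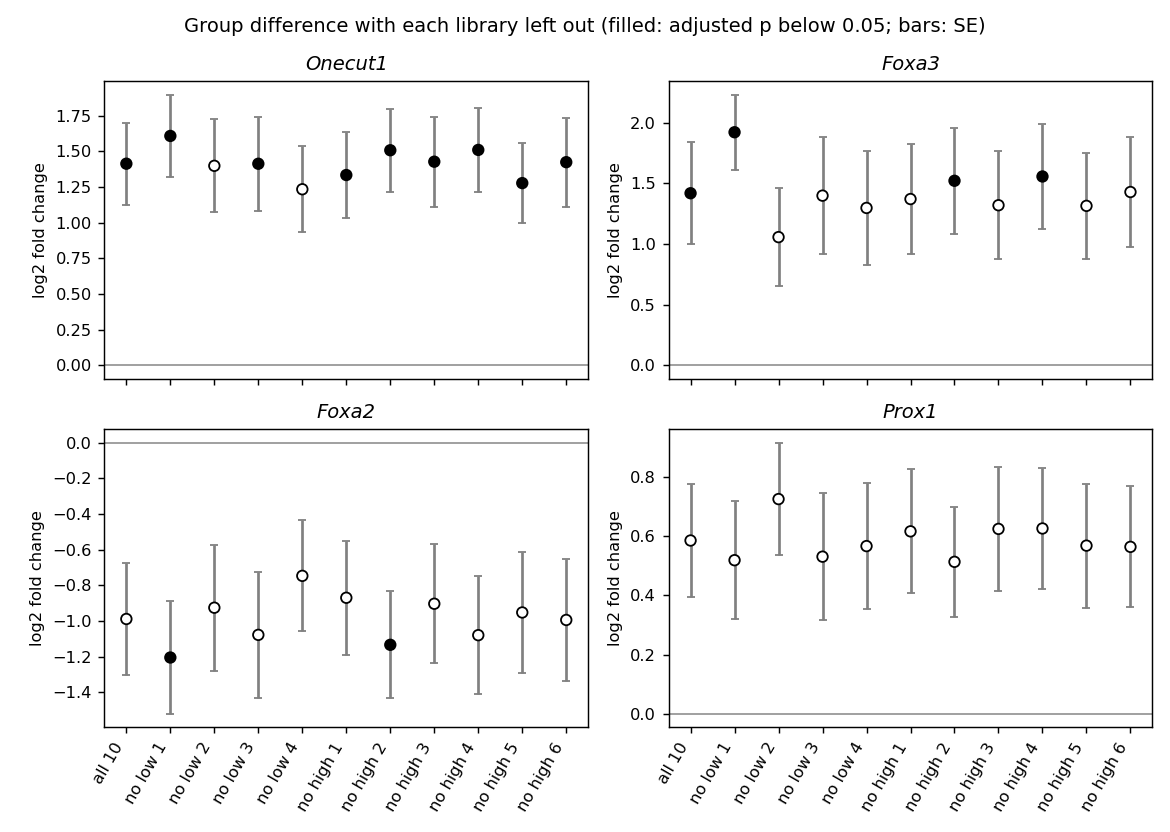
Log2 fold change (vertical axes, T cell-low minus T cell-high, with SE bars) of 4 factors with all 10 libraries and with each library left out, filled where the limma adjusted p is below 0.05. Onecut1 stays between 1.23 and 1.61 and loses its call without T cell-low 2 or 4, while Foxa3 ranges from 1.06 to 1.92 and keeps its call in 3 of the 10 fits with a library left out.

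The genes most like each factor over the 10 libraries, by Pearson's r of log2(scaled count + 1), are given as a description. A likeness this high over 10 libraries of 2 groups includes the group difference itself. Here and after group means are taken out, each gene was also picked among the 3 highest of all tested genes. Picking the highest of 11110 genes over 10 libraries by itself favours a high r, and no p was computed. For Onecut1 they were Gm7072 (r = 0.99), Zfp608 (0.98) and Clec1b (0.98), a lectin receptor gene. For Foxa3 they were Zfp609 (0.98), Epb41l4aos (0.98) and Dstyk (0.98). For Foxa2 they were Ppp1r3c (0.97), a subunit that directs a phosphatase to glycogen, Zcchc24 (0.96) and Gm4952 (0.96). For Prox1 they were Wnt5a (0.92), Polr1a (0.92) and Gabra3 (0.89).

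For Hnf4a the 3 were Fxr2 (0.98), Tsc22d3 (0.97), a glucocorticoid-induced leucine zipper gene, and Mfsd2a (0.96), a lipid transporter. For Cebpa they were Tmem140, Ctbp1 and Gpank1 (each 0.96), for Onecut2 Trim21 (0.95), Pld2 (0.94) and Snrpd2 (0.94), and for Nr5a2 Lgalsl, Ccl25 and Rpe (each 0.94). Foxa1 had the weakest likeness, to Nr2c1 (0.90), Dnaaf2 (0.89) and Eef1a1 (0.86). After the group means were taken out, the nearest to Onecut1 were Gm7072 (0.97), Ets2 (0.95) and Tut7 (0.94), to Foxa3 Sowahb (0.97), Zfp609 (0.97) and Epb41l4aos (0.96), and to Foxa2 Ppp1r3c (0.94), Kdelc1 (0.94) and Psmg2 (0.93). To Hnf4a they were Fxr2 (0.98), Ctsl (0.97), a lysosomal protease gene, and Sirt3 (0.97), a mitochondrial deacetylase gene. To Cebpa they were Erbb3 (0.99), Ctbp1 (0.97) and Dvl1 (0.96), and to Foxa1 Tmem131 (0.94), Nr2c1 (0.92) and Camk4 (0.91). To Onecut2 they were Cdk5 (0.97), Cyp2c70 (0.95), the rodent enzyme of muricholic acid synthesis, and Usp12 (0.94). To Prox1 they were Slc30a5 (0.94), Ppih (0.94) and Aqr (0.93), and to Nr5a2 Aig1 (0.96), Hnrnpc (0.95) and Gm35986 (0.95).

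Genes beyond the 9 factors were read from 6 lists of other liver factors and of known target genes, 63 different genes of which 10 stand in more than 1 list. The lists were chosen with earlier results of these data known. Their shares of calls therefore describe these lists and are no independent test. Of 26 other liver-enriched transcription factors 25 were tested, and 1 rose, 2 fell and 22 were not called in T cell-low livers. That is 12% called, against 12.8% of all tested genes, with a median log2 fold change of 0.08. Hhex, a homeobox factor of liver bud outgrowth, rose from 165 ± 68.5 (SD, n = 6) with T cell-high tumours to 445 ± 99.0 (SD, n = 4) with T cell-low tumours (log2 1.49, SE 0.29, limma adjusted p = 0.0143), with no overlap of the groups. Nr0b2 (SHP), a bile acid-induced repressor of NR5A2 and HNF4A, fell from 155 ± 95.3 to 30.6 ± 41.6 (log2 -2.96, SE 0.78, limma adjusted p = 0.0326). Nr1h3 (LXRα), the oxysterol receptor, fell from 747 ± 199 to 348 ± 234 (log2 -1.25, SE 0.33, limma adjusted p = 0.0335). Onecut3, the remaining ONECUT paralogue, was listed at 0.

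Known target genes were called at a share near or below the 12.8% of all tested genes for HNF4A (12.5%), C/EBPα (10%) and FOXA (0%). Of 16 HNF4A target genes 2 rose and 0 fell (median 0.03). Apoa4, an apolipoprotein of lipid absorption, was at 3512 ± 4000 against 522 ± 184 with T cell-high tumours (log2 2.14, limma adjusted p = 0.0310). Its values ran from 629 in T cell-low 1 to 9422 in T cell-low 4. Apob, the structural protein of very low density lipoprotein, was at 27707 ± 9162 against 13649 ± 4843 (log2 1.05, limma adjusted p = 0.0444). Of 10 C/EBPα target genes 1 rose and 0 fell (median 0.25), and it was Arg1, the urea cycle arginase, at 42888 ± 17026 against 19428 ± 2672 (log2 1.04, limma adjusted p = 0.0358). Of 9 FOXA target genes 8 were tested and 0 were called by limma. At an unadjusted p below 0.05 there were 1 higher and 1 lower, against 3830 of all 11110 tested genes. The most abundant FOXA target genes, Alb and Ttr, had log2 fold changes of -0.01 (limma adjusted p = 0.985) and -0.04 (adjusted p = 0.924).

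The NR5A2 and PROX1 target list had the largest share of calls of the 6, 3 of 8 genes (37.5%, against 12.8% of all tested genes), in both directions. With the lists chosen as stated above, this ranking is a description only. Next to Nr0b2, Abcb11, the bile salt export pump, fell in T cell-low livers. Scaled counts of Abcb11 were 1620, 328, 574 and 194 in T cell-low 1 to 4, against 1592 at the lowest in T cell-high libraries, so that T cell-low 1 lay with the T cell-high group as it did for Foxa3. The means were 679 ± 647 (SD, n = 4) and 2069 ± 442 (SD, n = 6), a log2 fold change of -2.04 (limma adjusted p = 0.0196). Apoa1, the main protein of high density lipoprotein, rose from 59643 ± 9368 to 128528 ± 33801 (log2 1.08, limma adjusted p = 0.0208), with no overlap of the groups. The median of the list was -0.08.

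Of 7 ONECUT1 target genes 0 rose and 1 fell (median -0.04), a share of 14.3% that is near the 12.8% of all tested genes. It was Pfkfb1, the liver enzyme that makes and degrades fructose 2,6-bisphosphate, at 30.3 ± 14.7 against 98.1 ± 46.4 (log2 -1.59, limma adjusted p = 0.0367). The list includes Foxa2, one of the 9 factors. Across all 6 lists, as over all tested genes, the calls depended on single libraries. T cell-low 1 lay inside the T cell-high range for Nr0b2 (92.0), Nr1h3 (697), Arg1 (19618), Apoa4 (629) and Pfkfb1 (51.4). The groups did not overlap for Hhex, Apob and Apoa1. Without T cell-low 4, 1 call was left over all lists, and 156 over all 11090 tested genes. Without T cell-low 2, 0 were left on the lists, and 109 over all 11102 tested genes. Without T cell-low 1 the HNF4A list counted 4 higher and 2 lower, against 3633 calls over all 11100 tested genes. Leaving out T cell-low 3 or T cell-high 1, 3, 5 or 6 left 0 lower calls on the other-factor and ONECUT1 lists, 1 on the NR5A2 and PROX1 list, and 0 or 1 higher calls on the HNF4A list. In those fits 380 to 508 of all tested genes were called, against 1420 with all 10 libraries. The C/EBPα list counted 0 on leaving out T cell-low 2, 3 or 4 or any T cell-high library but the one numbered 2. Leaving out T cell-high 4 gave 1095 calls over all tested genes. Without T cell-high 2 or without T cell-low 1 the ONECUT1 list counted 2 lower, against 2280 and 3633 calls over all tested genes.

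**Figure D5:**
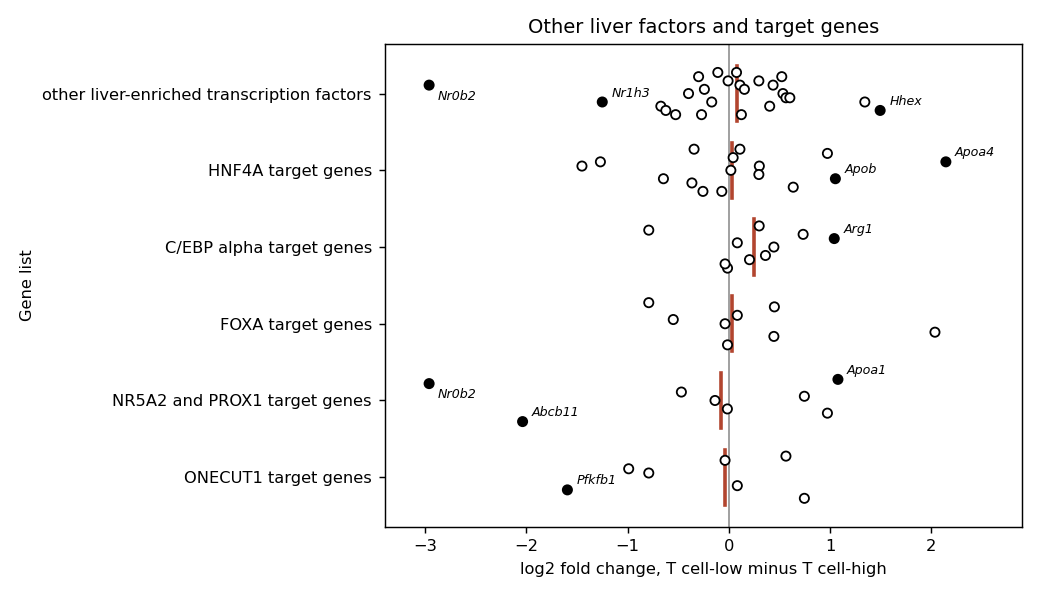
Log2 fold change (horizontal axis, T cell-low minus T cell-high) of each tested gene of the 6 lists, one point per gene, filled and named where the limma adjusted p is below 0.05, with the list median as a red bar. Medians lie between -0.08 (NR5A2 and PROX1 target genes) and 0.25 (C/EBPα target genes), and called genes lie on both sides of 0.

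Some markers of other cells and of RNA handling differed between the groups and others did not, and their part in the results above was not tested. Of 12 immediate early genes, whose level depends on handling, 11 were tested and 3 were called higher (Ier3, Btg2 and Klf6). Zfp36 (log2 -0.79) and Dusp1 (-0.65) lay below 0 and were not called. The sums of the 12 were 1416 to 8530 with T cell-low tumours against 870 to 2385 with T cell-high ones. T cell-low 1, at 1416, lay inside the T cell-high range. Of 10 cholangiocyte markers, the bile duct cells that also make ONECUT factors, 4 were tested and 0 were called by limma, with sums of 161 to 467 and 127 to 277. Of 7 pancreatic ductal tumour markers 1, Msln, was tested and called higher (log2 2.09), with sums of 33.3 to 182 and 36.1 to 55.7, and Agr2 was at 0. Of 11 pancreatic acinar and endocrine markers, cells that also make FOXA2, NR5A2 and ONECUT1, 2 were tested. Cela1 was called lower (log2 -1.22, limma adjusted p = 0.0139) and Cela2a was not called (log2 1.69, adjusted p = 0.0897). The sums of the 11 were 121 to 215 and 255 to 476, most of it Cela1 (86.8 to 166 against 244 to 439), and Ptf1a and Gcg were at 0.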

How the data were processed

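Mouse liver RNA was extracted with TRIzol and RNeasy and made into 10 libraries with the QuantSeq 3′ FWD kit, per the labels' protocols. STAR, DESeq2 and mm10 were used, per the submitters' processing notes, with no versions; how reads were assigned to genes (counter, strand, annotation) is not stated in the sources used here. Values in the deposited table are a signal per gene and library that the authors made by scaling counts. They are not whole: 2.80 to 3.63% of the values above 0, and 0 of 90 values of the factors, are whole multiples of the commonest step of their library (relative tolerance 1e-06). Depth is therefore unknown, and no counting interval was computed. Low 3′ counts such as those of Foxa1 are the least precise.

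The log2 of the scaled count plus 1 of genes with a mean of at least 10 (11110 of 24972) was compared with limma 3.58.1 in R 4.3.3, with a variance trend, not robust, group as the only term, two-sided, Benjamini-Hochberg adjusted over all tested genes, threshold 0.05, 13.1 degrees of freedom. The procedure was tested on simulated data. Their spread was independent between libraries and held no subgroups, so they cannot show how subgroups of libraries affect the calls. Fold changes of 2.66 and the like are 2 to the power of the log2 change. Pairs of factors were compared by exact permutation of libraries (scipy 1.17.1 in Python 3.11.15), figures drawn with matplotlib 3.10.9. Positions are from GENCODE vM21 and promoters from RefSeq. Groups and replicate numbers are from the titles. The 9 factors, the gene lists and the libraries left out together were chosen with earlier results of these data known. Besides the factors, the text names up to 4 called genes per list by lowest adjusted p (with none called, the 2 most abundant) and the 3 genes of highest r per factor, before and after removal of group means. Alternatives were other pseudocounts (0.5 and 8), filters, scalings, robust and weighted fits, a replicate block, an adjusted p below 0.1, libraries left out, and, for single factors, the exact permutation test. 13 marker lists were checked, of which those bearing on a factor are given. 1 gene of the target lists is not reported here and was left out of their counts. The remaining lists gave, of tested markers, 1 of 7 sinusoidal endothelial, 1 of 7 stellate and 1 of 5 erythroid markers higher, 0 of 7 Kupffer, 0 of 1 T cell and 0 of 2 B cell markers called by limma, and 3 of 15 hepatocyte markers higher.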

Additional observations from a re-analysis of the deposited data

How the results depend on the processing

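Over 24 alternatives per factor (23 for Foxa1, which fails the filter of a mean of at least 50), Onecut1 and Foxa3 stayed positive and Foxa2 negative. For Onecut1 the sign could not turn on leaving libraries out, since its groups do not overlap. The filters, the robust fit and the exact permutation test leave every fold change as it was, so no sign could turn there. Onecut1 lost its call in 3 and Foxa3 in 10, Foxa2 gained one in 7 and Prox1 in 1 (with trimmed-mean rescaling 0.61, limma adjusted p = 0.0499). The exact permutation test, also among the alternatives and not adjusted over genes, gave p below 0.05 for Foxa2 and Prox1 too. The factors called higher were 2, and 3 with trimmed-mean rescaling or at an adjusted p below 0.1, 1 with no filter on low values, 1 with the replicate block and 0 when T cell-high 1, 3, 5 and 6 were left out. Leaving out single libraries gave 0 to 2, the 0 coming from leaving out T cell-low 2 or 4. The factors called lower were 0, and 1 (Foxa2) with a mean of at least 50, equal totals, library weights, an adjusted p below 0.1, and on leaving out T cell-high 2 and 4 with or without T cell-low 1. Single libraries left out gave 0 to 1. Signs turned for Hnf4a (0.013 with the block, 0.50 without T cell-high 1, 3, 5 and 6), Cebpa (0.020 without those 4) and Foxa1 (0.083 with the block, 0.57 without those 4, and -0.44 to 0.29 with single libraries left out). The cause was not tested.

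Among the pairs, without T cell-high 1, 3, 5 and 6 Foxa1 minus Foxa3 was -0.24, Hnf4a minus Cebpa 0.48 and Hnf4a minus Nr5a2 0.61. Hnf4a minus Cebpa was -0.18 on leaving out T cell-high 2 and 4, and -0.063 when T cell-low 1 was dropped too. With single libraries left out the pairs ranged from -0.075 to 0.16 (Hnf4a minus Cebpa), -0.49 to 0.23 (Hnf4a minus Nr5a2), -1.24 to -0.56 (Hnf4a minus Prox1), 0.63 to 1.49 (Foxa1 minus Foxa2), -1.84 to -1.06 (Foxa1 minus Foxa3), -3.13 to -1.98 (Foxa2 minus Foxa3) and 1.43 to 1.98 (Onecut1 minus Onecut2).

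Over all tested genes 1420 were called (3830 at an unadjusted p below 0.05), against 193 with the replicate block, 3266 with library weights, 109 to 3633 with single libraries left out (the ends being replicates 2 and 1 of the T cell-low group), 2628 on leaving out T cell-high 2 and 4, 4522 on leaving out T cell-low 1 too, and 0 on leaving out T cell-high 1, 3, 5 and 6. Equal totals moved the median of all genes to -0.11 and the split to 421 higher and 1068 lower, from 599 and 821. The labels do not say whether replicate numbers pair the libraries. Same-numbered libraries correlated above 0.1 in 2 of 4 pairs, and 1 of 4 T cell-low libraries correlated best with its own number. Libraries of different number also correlated above 0.1, up to 0.29 for T cell-low 3 with T cell-high 2. These few correlations cannot settle whether the numbers pair the libraries. With the block the log2 fold change was 1.26 for Onecut1 (limma adjusted p = 0.0482), 1.30 for Foxa3 (0.0765) and -0.95 for Foxa2 (0.0765). On the gene lists the block left 1 lower call among the other factors, 2 on the NR5A2 and PROX1 list and 0 in each other list and direction. With no filter on low values 1010 of 16824 genes were called. The HNF4A list then had 1 higher, the C/EBPα list 0 higher, the NR5A2 and PROX1 list 0 higher and the ONECUT1 list 0 lower. A mean of at least 50, equal totals or library weights gave 2 lower ONECUT1 targets. Library weights gave 4 higher HNF4A targets, and leaving out T cell-high 2 and 4 gave 3 lower ONECUT1 targets.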
